A study of Homo sapiens with 4 samples.

Results

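Expression of 6 genes of DNA mismatch repair (MSH6, MSH3, MLH3, PMS2, PMS1 and EXO1) was examined in NOMO-1, an established human acute myeloid leukaemia line of monocytic character, with and without hairpins against ZFX. The members were taken as the probe sets that carry 1 gene symbol and name a listed gene. Each of the 6 genes had 1 such probe set, so no choice between probe sets was needed, and they are 6 of 18417 genes on the array. All 6 lay above the limit for dim genes and were among the 12892 genes tested. The gene list was put together after earlier results of these data were known, and MLH3 had been named there for the wide separation of its groups, so the values below are a description of these genes and not a test of the list.

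The control group, labelled ZFX wild type, held 1 array of cells given a GFP lentivirus (LEN-GFP) and 1 array of cells given a scrambled hairpin (SCR). The group labelled ZFX knock-down held the hairpin SH1 on 1 array and the hairpin SH3 on the other. All cells were infected with lentivirus at an MOI of 1 and put through selection, and RNA was taken 48 h after it. No construct was arrayed more than 1 time, LEN-GFP carries no hairpin, and it is not stated whether the cultures were independent, so errors below hold the spread between constructs and arrays together.

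Mismatch repair removes wrongly paired bases and small loops that DNA polymerases leave behind. MutS proteins find the error as heterodimers, in which MSH6 gives preference for single mismatches and the smallest loops and MSH3 for larger loops. MutL proteins follow, among them the nicking endonuclease PMS2, and EXO1 then degrades the nicked strand before it is copied again. In leukaemia cells a working pathway is known for making thiopurines and methylating drugs toxic. Other core members of the pathway were not analysed here.

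ZFX itself, a zinc finger transcription factor, was lower on both hairpin arrays. On the log2 scale it stood at 10.65 (LEN-GFP), 10.66 (SCR), 10.13 (SH1) and 10.12 (SH3), which put the hairpin arrays at 69.3% of control. A good part of the array signal was thus still present. Median intensities lay between 184.8 and 189.8 on the 4 arrays. Of 10 measured markers of monocytic leukaemia, 9 were above the limit for dim genes, with list medians of 11.24 to 11.74 on the log2 scale, and 0 of 5 T cell markers were. Of the other lists, 3 of 4 B cell, 2 of 3 erythroid, 3 of 5 fibroblast and 3 of 5 epithelial markers were above it. Some genes of the monocytic leukaemia list differed between arrays. MPO was at 13.30, 13.36, 13.30 and 12.31 on LEN-GFP, SCR, SH1 and SH3, and ELANE at 12.71, 12.72, 12.57 and 11.22. KIT was also lower on SH3 (10.41, against 11.35 and 11.28 on LEN-GFP and SCR). CSF1R was higher on SH1 (9.92, against 9.04 and 8.89), and ITGAM and CD14 were higher on SH3. The part of this in the values of the members was not tested. No gene of the 12892 passed limma's adjusted p of 0.05, against 779 (6.04%) at an unadjusted p under 0.05, and ordinary statistics without moderation gave 0 and 686. SH3 stood further from the controls than SH1: limma called 1698 genes with SH1 left out and 54 with SH3 left out, so each value of the members is given for both hairpins.

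Of the 6 genes, MLH3 and MSH6 were lower on both hairpin arrays than on both controls, with mean log2 differences of -0.89 and -0.34. The stretch before the start of each is shown because ZFX is a factor that binds promoters, and MSH3 is shown as a member whose groups overlapped. The sequences are from RefSeq (GRCh38.p14), end at the base before the gene's first listed start, and have in capitals GCGCATGCGC for MLH3, GGGCGGGGC and ATTGG for MSH6 and the overlapping TTTGGCGC and TTTCGCGC for MSH3, each read on either strand. The MLH3 window is chr14:75051468-75051717 (minus strand), the MSH6 window chr2:47782895-47783144 (plus strand) and the MSH3 window chr5:80654545-80654651 (plus strand).
MLH3: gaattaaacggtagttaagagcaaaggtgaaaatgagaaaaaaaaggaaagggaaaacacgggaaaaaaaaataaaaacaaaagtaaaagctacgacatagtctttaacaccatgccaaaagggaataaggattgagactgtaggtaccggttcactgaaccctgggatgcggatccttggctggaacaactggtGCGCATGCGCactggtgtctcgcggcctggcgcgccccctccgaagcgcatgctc
MSH6: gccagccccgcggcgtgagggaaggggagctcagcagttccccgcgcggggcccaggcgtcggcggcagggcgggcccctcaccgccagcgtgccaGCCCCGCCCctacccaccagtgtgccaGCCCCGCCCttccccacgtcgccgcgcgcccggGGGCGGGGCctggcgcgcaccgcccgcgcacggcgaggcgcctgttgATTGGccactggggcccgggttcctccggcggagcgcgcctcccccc
MSH3: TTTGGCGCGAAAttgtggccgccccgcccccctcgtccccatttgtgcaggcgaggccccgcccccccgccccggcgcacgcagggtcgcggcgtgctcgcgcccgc

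The windows before the starts differed in composition. Over the 250 bases before the start, MLH3 had 47.2% G and C and 13 CpG pairs, whereas MSH6 had 81.2% and 34 and MSH3 69.6% and 30. PMS1 had 71.2% and 32, EXO1 65.6% and 27 and PMS2 59.6% and 22, against medians of 58% and 11 over 35093 promoter windows of the same length. All motifs were chosen with the sequences in view and were sought on both strands. The shares of all windows are therefore no measure of enrichment, and the composition of the windows was not allowed for. AGGCCT, the core of the sequence known for ZFX, was in 0 of the 6 windows and in 9.2% of all windows. The windows of the members were those before the first listed start, and bases after a start were not searched. The count of AGGCCT therefore says nothing on sites after the start or at other starts. GCGCATGCGC, a sequence known for the factor NRF1, stood 55 bases before the start of MLH3 and in 1.03% of all windows. It was not in the windows of the other members. The string was taken from the MLH3 window itself, as the middle of its longest self-complementary stretch. Its presence there was thus fixed in advance, and the share of all windows is no measure of how unusual it is. TTTGGCGC and TTTCGCGC, forms of the E2F element, overlapped each other at 107 and 103 bases before the start of MSH3 and were in 0.55% and 0.439% of all windows. GGGCGGGGC, a GC box, was in 4 of the 6 windows (MSH3, MSH6, PMS2 and EXO1) against 13.1% of all, with 3 copies before MSH6. ATTGG, the reverse of the CCAAT box, was in 3 of the 6 (MSH6, PMS1 and PMS2) against 32% of all. TGACGTCA, the cyclic AMP response element, was found before PMS2 and EXO1 and in 1.65% of all windows. A match is a string of letters and no evidence of binding, and the arrays measured none.

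**Figure D1:**
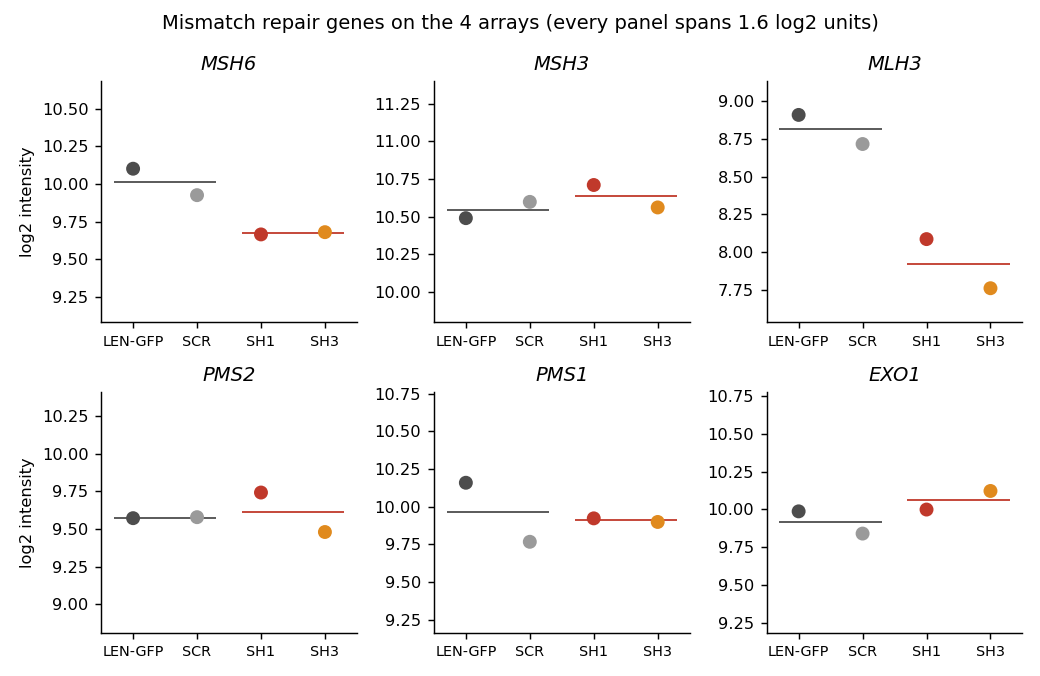
Log2 intensity of the 6 mismatch repair genes, with 1 point for each array and lines for the means of the 2 control and the 2 hairpin arrays; every panel spans the same range, but levels of different genes are not comparable. MLH3 is at 8.91 and 8.72 on the controls and at 8.09 and 7.76 on SH1 and SH3, MSH6 shows a smaller step, and the other 4 genes have no step or a very small one.

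The MutS partners are taken first. MSH6 is the subunit that confers recognition of single mismatches. Its log2 level was 10.10 with LEN-GFP, 9.93 with SCR, 9.67 with SH1 and 9.68 with SH3, or 1098, 973, 812 and 820.3 on the linear scale. Both hairpin arrays lay below both controls, at nearly the same level as each other, and the nearest arrays of the groups were 0.25 apart. The mean difference was -0.34 (SE 0.12, n = 2 against 2), which is 79.0% of control with a 95% interval of 63.5% to 98.2% from the limma fit. In RNA of a whole culture, a lower value from fewer cells that express a gene cannot be told apart from less RNA per cell. The step from SCR to the hairpins was not much larger than the step between the controls, since SCR was lower than LEN-GFP by a log2 difference of -0.18.

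MSH3, which directs recognition to larger loops, showed no such step. In log2 units LEN-GFP gave 10.49, SCR 10.60, SH1 10.71 and SH3 10.56. SH3 lay between the controls, so the groups overlapped. The mean difference was 0.09 (SE 0.12), with a 95% interval from -0.21 to 0.39 on the log2 scale, which leaves room for 86.5% to 131% of control. The MutS subunits thus stood on opposite sides of 0, and the difference between them was not tested.

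Among the MutL genes MLH3 had the widest difference. Its product is best known for resolving crossovers in meiosis, carries an endonuclease site and takes a lesser part in mismatch repair. LEN-GFP gave a log2 level of 8.91, SCR 8.72, SH1 8.09 and SH3 7.76, or 481, 421, 272 and 217 on the linear scale. Both hairpin arrays lay well below both controls, and the nearest arrays, SCR and SH1, were 0.63 apart. SH1 stood at 60.4% of the mean of the controls and SH3 at 48.2%.

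The mean difference of MLH3 was -0.89 (SE 0.16, n = 2 against 2), or 53.9% of control with a 95% interval of 40.6% to 71.6%. It was larger than that of ZFX (-0.53), and only 26 of the 12892 genes had a lower difference. The gap between the nearest arrays was exceeded by 8 other lower genes, and 0.233% of all genes were lower with a gap of at least 0.5. MLH3 was picked from these extremes, which tends to overstate its difference, and limma's adjusted p over all genes was 0.797 for MLH3, MSH6 and ZFX alike.

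PMS2, the nicking subunit of the main MutL complex, differed between the hairpins more than between the groups. The controls were at log2 levels of 9.57 (LEN-GFP) and 9.58 (SCR), but SH1 was at 9.74 and SH3 at 9.48. The hairpin arrays lay on either side of the controls, at 112% and 93.6% of their mean. The mean difference was 0.04 (SE 0.14, 95% interval -0.32 to 0.39).

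PMS2 has many pseudogene copies, and the array reads several of them together with it. Besides its own probe set, 8 probe sets name PMS2 with other genes, and their differences lay between -0.03 and 0.02, with overlapping groups in all 8. On all 8, SH1 was above the mean of the controls (0.07 to 0.14) and SH3 below it (-0.14 to -0.10). PMS2 itself was at 0.17 on SH1 and -0.10 on SH3. The copies with a probe set of their own were PMS2CL (-0.29, SE 0.15, SH1 at -0.11 and SH3 at -0.46), PMS2P1 (0.04, SE 0.09) and PMS2P3 (-0.06, SE 0.10). Signal from near-identical copies on the same probes could not be separated, so the value of PMS2 is uncertain in this respect.

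PMS1, a MutL protein without a known endonuclease activity and with an unsettled role, varied mainly between the controls. LEN-GFP stood at 10.16 in log2 units, SCR at 9.77, SH1 at 9.92 and SH3 at 9.90. Both hairpin arrays lay between the controls, which were 0.39 apart. The mean difference was -0.05 (SE 0.16, 95% interval -0.48 to 0.37), and its sign depended on which control was used: it was 0.14 without LEN-GFP and -0.25 without SCR. ORMDL1, a regulator of sphingolipid synthesis whose start lies 111 bases from that of PMS1 on the opposite strand, was at 9.97, 9.89, 9.79 and 9.70 in the same order of arrays. It was the only head-to-head neighbour of a member within 1000 bases that was measured, and its difference was -0.19 (SE 0.12), with groups that did not overlap. AIMP2, the corresponding neighbour of PMS2, was not analysed here.

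EXO1, the exonuclease of the pathway, was slightly higher on the hairpin arrays. The log2 levels were 9.99 for LEN-GFP, 9.84 for SCR, 10.00 for SH1 and 10.12 for SH3. The groups did not overlap, but SH1 and LEN-GFP were only 0.01 apart. The mean difference was 0.15 (SE 0.12, 95% interval -0.17 to 0.47), or 111% of control, and it was no larger than the distance between the controls (-0.15 for SCR minus LEN-GFP).

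**Figure D2:**
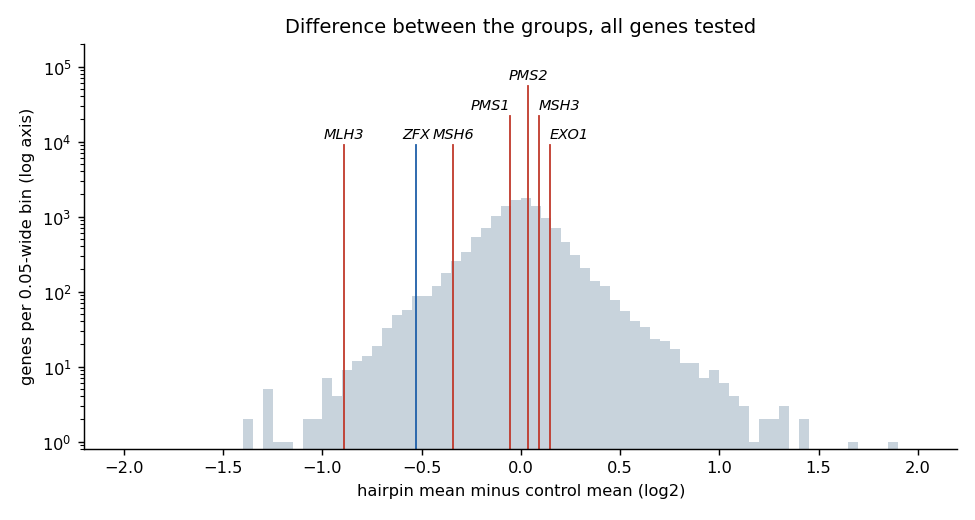
Number of genes (log axis) by the difference between the hairpin and control means in log2 units, for all 12892 genes tested, with lines at the 6 mismatch repair genes (red) and at ZFX (blue). MLH3 at -0.89 lies in the far left tail, MSH6 at -0.34 on the left shoulder, and the other 4 genes within 0.15 of 0.

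As a group the 6 genes did not move in 1 direction. Their median difference was -0.0083, against -0.0029 over all genes tested, with 3 below 0 and 3 above. Both hairpin arrays were below both controls for 2 of the 6 genes, where 19% of all genes tested were so placed, and above both for 1 of the 6, where the background was 18.2%. The adjusted p was 0.837 for EXO1, 0.891 for MSH3, 0.961 for PMS1 and 0.969 for PMS2 in limma. The differences of MLH3 and MSH6 also lay at different depths of the overall distribution, since 26 genes were lower than MLH3 and 716 lower than MSH6.

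The hairpins were then set one at a time against both controls, in limma fits in which the lone array is assumed to vary like the control pair. Both comparisons share the same controls. For MLH3 the difference was -0.73 (SE 0.15) on SH1, with an adjusted p of 0.0996, and -1.05 (SE 0.15) on SH3, with an adjusted p of 0.00322. Without SH1, 6.9% of all genes were called lower, and 0.248% without SH3, so a call for SH3 is common among all genes. For MSH6 SH1 gave -0.35 (SE 0.14) and SH3 -0.33 (SE 0.14), with adjusted p of 0.414 and 0.160. The other 4 genes were not called in either fit, and for PMS2 the sign turned, from 0.17 on SH1 to -0.10 on SH3. With LEN-GFP or SCR left out, the difference was -0.79 and -0.99 for MLH3 and -0.25 and -0.43 for MSH6, and no gene of the array was called (241 and 275 at an unadjusted p under 0.05; no other tool was run on 3 arrays).

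**Figure D3:**
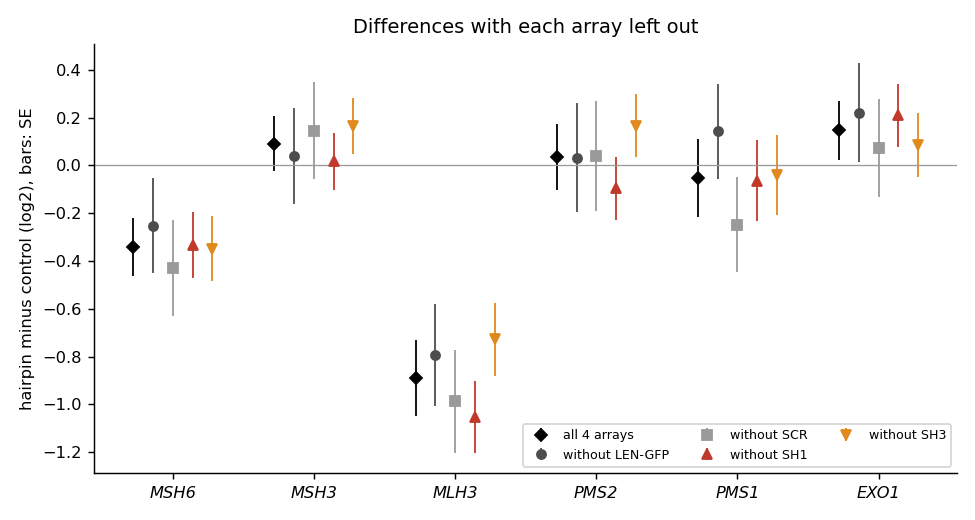
Difference between hairpin and control arrays in log2 units for each gene, with all 4 arrays and with each array left out; bars are the SE of the limma fit. MLH3 stays between -1.05 and -0.73 and MSH6 between -0.43 and -0.25, while PMS1 and PMS2 change sign.

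The genes that carry out the later steps of the pathway were taken from a list of 16, all of which were tested. After the error is cut out, RPA covers the single strand, RFC loads the clamp PCNA, DNA polymerase delta fills the gap and LIG1 seals it. Of the 16 genes, 0 passed limma's adjusted p, and the median was -0.07 (SH1 -0.08, SH3 -0.04). The difference was below 0 for 11 and above 0 for 5, where 50.8% of all genes were below 0. Both hairpin arrays were below both controls for 6 of the 16 and above for 4, where 19% and 18.2% of all genes tested were so placed. POLD2, a subunit of DNA polymerase delta, had the largest difference, and its pattern was like that of MSH6. It was at 11.04 on LEN-GFP, 10.75 on SCR, 10.53 on SH1 and 10.52 on SH3, a difference of -0.37 (SE 0.13). RPA3, the smallest subunit of RPA, differed by -0.19 (SE 0.11), and SSBP1, a mitochondrial single-strand binding protein often listed with the pathway, by -0.18 (SE 0.16), SH1 at 0.01 and SH3 at -0.38. PCNA itself differed by -0.11 (SE 0.11) and LIG1 by -0.03 (SE 0.13).

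The genes whose products have been linked to mismatch repair proteins numbered 10 tested of 11. They lay on both sides of 0 (4 below and 6 above, median 0.05), where 50.8% of all genes were below 0. For 1 of the 10 both hairpin arrays were below both controls, and for 1 above both. The shares of all genes tested were 19% and 18.2%. CHAF1B, a subunit of the chromatin assembly factor CAF-1, was at 9.74 and 9.57 on the controls and at 9.37 and 9.14 on SH1 and SH3, a difference of -0.40 (SE 0.14). BRIP1, a helicase, differed by 0.28 (SE 0.18), SH1 at 0.09 and SH3 at 0.47, and FAN1, a nuclease that binds MutL proteins, by 0.23 (SE 0.12). SETD2, which lays down the histone mark bound by MSH6, differed by -0.02 (SE 0.09). Of the meiotic partners of MLH3, 1 of 6 genes was above the limit for dim genes. It was CCNB1IP1, a ubiquitin ligase of crossover sites, at 0.26 (SE 0.18), SH1 at 0.06 and SH3 at 0.46.

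Since MSH6 and EXO1 are known to be expressed most in dividing cells, S phase genes are given beside them. Of 20 tested genes (21 listed), 17 had a difference below 0 and 3 above, where 50.8% of all genes were below 0. Both hairpin arrays were below both controls for 10 and above both for 1, where 19% and 18.2% of all genes tested were so placed. The median was -0.13, SH1 at -0.12 and SH3 at -0.15. In limma 0 passed the adjusted p and 2 had an unadjusted p under 0.05, against 6.04% of all genes. CCNE1, the cyclin E gene, differed by -0.61 (SE 0.22), TYMS, thymidylate synthase, by -0.37 (SE 0.27, SH1 at 0.03 and SH3 at -0.77) and GINS2, of the replicative helicase, by -0.36 (SE 0.10). TK1, thymidine kinase, was higher on both hairpin arrays, with a difference of 0.22 (SE 0.12). The difference was below 0 for MSH6, as for 17 of the 20 S phase genes, and above 0 for EXO1. The part of a change in dividing cells in the values of MSH6 or MLH3 was not tested.

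**Figure D4:**
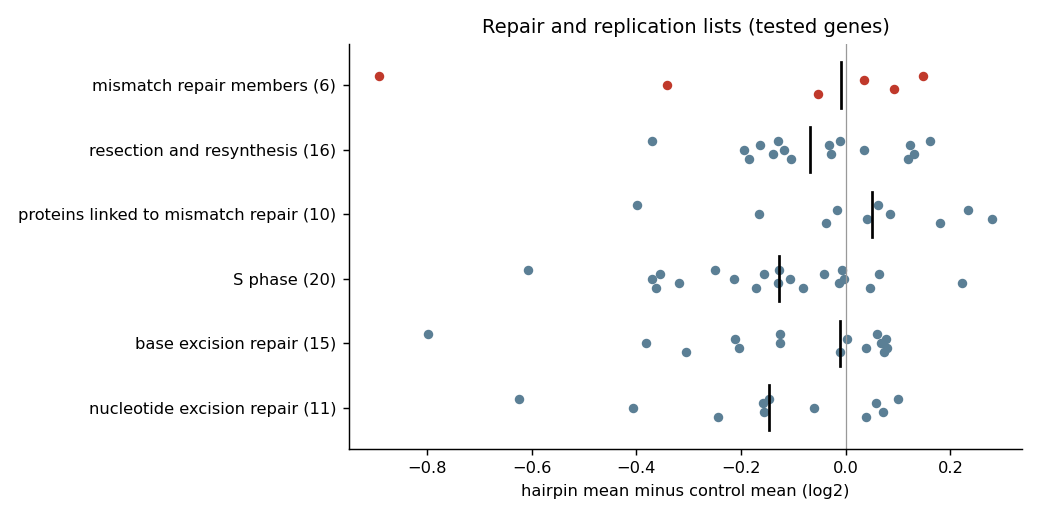
Difference between hairpin and control means in log2 units for every tested gene of 6 lists (number of genes in brackets), with the median of each list as a black bar. MLH3 at -0.89 and MSH6 at -0.34 are the lowest 2 of the mismatch repair genes, and the medians of all 6 lists lie between -0.15 and 0.05.

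Finally, the genes with the most similar course over the 4 arrays were named for each member, as the 3 with the smallest root mean square distance between log2 values after each gene was centred on its own mean. With 4 arrays and 12892 genes, close matches are easily found, and no shared function is implied. For MLH3 they were PLXNA1, a plexin (distance 0.05), ZNF32, a zinc finger gene (0.06), and MTARC2, a mitochondrial reductase (0.09). PLXNA1 was at 8.89 on LEN-GFP, 8.72 on SCR, 8.20 on SH1 and 7.78 on SH3. For MSH6 they were ZFP90, DHX30 and ALKBH5 (distances 0.01, 0.02 and 0.02), and their differences were -0.33, -0.35 and -0.33. For the other members they were FAM135B, RDM1 and PSMD5 (MSH3), GPC4, ZNF333 and CEBPA-DT (PMS1), FHL3, ACTR8 and CNOT6 (PMS2) and MYO1G, NT5C and NCAPH2 (EXO1).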

How the data were processed

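RNA of 4 cultures was measured on expression arrays, 2 control and 2 with ZFX hairpins. The table that the authors deposited gives, for 33297 probe sets, the intensity on each array on a linear scale. The submitters' processing notes name RMA and Affymetrix Expression Console 1.1, but no source used here gives the step from RMA's log2 values back to linear ones. RMA makes the arrays alike in distribution and can compress changes of dim genes. All value columns were used.

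The log2 of each intensity was taken without an offset. The platform annotation gave 1 symbol to 19460 probe sets; the brightest stood for its gene (18417 genes). The dimmest 30% (mean log2 under 6.70) were left out. The 12892 others were fitted with limma 3.58.1 in R 4.3.3 (eBayes with trend, 2 residual and 2.95 prior degrees of freedom), two-sided, Benjamini-Hochberg over all. The steps were tested on simulated data. Neighbours and promoters came from RefSeq tables (GRCh38.p14); all 6 members matched. Members and lists were chosen with earlier results of these data known. Named were all members, the 3 genes of largest difference per list, 3 nearest courses per member and head-to-head neighbours. PCNA, LIG1 and SETD2 were added for their role and TK1 for its direction. Some genes of the monocytic leukaemia list were added for their differences between arrays. Lists covered resection and resynthesis, linked proteins, meiotic partners, S phase, base and nucleotide excision repair and cell type markers.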

Additional observations from a re-analysis of the deposited data

How the results depend on the processing

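The fit was repeated with 8 other ways of processing (no filter on dim genes, the lowest 50% left out, 16 added before the log, median centring, a further quantile step, the mean of all probe sets, no trend, no moderation). The difference of MLH3 stayed between -0.892 and -0.849 and that of MSH6 between -0.343 and -0.335. The filters, the mean of all probe sets, the trend and the moderation cannot change a member's difference, since each member has 1 probe set. Median centring shifts all genes alike. The narrow range thus reflects only the offset, the centring and the quantile step. No member changed sign or was called. The unadjusted p of MSH6 in limma, 0.0387, was 0.0512 with median centring and 0.0607 without moderation, so its 95% interval is not firm; without LEN-GFP it was 0.271 and without SCR 0.0972. With each array left out, MLH3 lay between -1.05 and -0.73 (called without SH1 only), MSH6 between -0.43 and -0.25, MSH3 between 0.02 and 0.17, EXO1 between 0.07 and 0.22, PMS1 between -0.25 and 0.14 and PMS2 between -0.10 and 0.17. PMS1 turned to 0.14 without LEN-GFP, and PMS2 to -0.10 without SH1. The number of genes called lay between 0 and 1698 with an array left out (1698 without SH1, 54 without SH3, 0 without either control) and was 0 otherwise. No paired analysis was possible because the labels carry no replicate numbers. The number of arrays limits the precision.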

Other observations

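Genes of the other excision repair pathways were examined beside mismatch repair. Of 15 genes of base excision repair, 8 had a difference below 0, where 50.8% of all genes did, with a median of -0.01. Both hairpin arrays were below both controls for 5 and above both for 2, where 19% and 18.2% of all genes tested were so placed. In limma 0 passed the adjusted p or an unadjusted p under 0.05, against 6.04% of all genes for the latter. UNG, which removes uracil from DNA, differed by -0.80 (SE 0.45), nearly as much as MLH3. Unlike MLH3, it was only slightly below the controls on SH1 (-0.12) and far below them on SH3 (-1.48). It was at 8.81 on LEN-GFP, 8.88 on SCR, 8.73 on SH1 and 7.37 on SH3. PARP1, the sensor of strand breaks, differed by -0.38 (SE 0.21), SH1 at -0.11 and SH3 at -0.65, and LIG3, the ligase of this pathway, by -0.30 (SE 0.20), with -0.09 and -0.52.

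Of 11 tested genes of nucleotide excision repair (14 listed), 7 had a difference below 0, where 50.8% of all genes did. The median was -0.15 (SH1 -0.05, SH3 -0.09). Both hairpin arrays were below both controls for 5 and above both for 0, where 19% and 18.2% of all genes tested were so placed. In limma 0 passed the adjusted p and 1 had an unadjusted p under 0.05, against 6.04% of all genes. XPA, which verifies damage, was at 9.04 on LEN-GFP, 8.87 on SCR, 8.83 on SH1 and 7.82 on SH3, again low mainly on SH3. Its difference was -0.62 (SE 0.34). ERCC2, a helicase of the TFIIH complex, differed by -0.41 (SE 0.15), SH1 at -0.28 and SH3 at -0.54. ERCC4, a nuclease subunit, was lower on SH1 (-0.46) than on SH3 (-0.03), and differed by -0.24 (SE 0.24). Its groups overlapped, and its controls were further apart than its hairpin arrays (-0.52 for SCR minus LEN-GFP).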
